A study of Rattus norvegicus with 16 samples.

Results

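The comparison described here set rat neurons carrying a control lentivirus against neurons that received no virus. The control virus (NT) held a short hairpin RNA (shRNA) with no target, and the other cultures (NO) were not transduced. Each group held 4 samples, so 8 of the 16 samples of the series entered the comparison. All 16 were primary hippocampal neuron cultures from embryos of either sex (Sprague-Dawley rats, embryonic day 18 to 19), and the design text calls the samples of a group biological replicas. The series concerns PRR7, a synaptic adaptor protein, and the other 8 samples were knockdown cultures (KD), which received a lentivirus with an shRNA against PRR7, and overexpression cultures (OE), which received a lentivirus carrying PRR7. Hairpins were placed in the pTRIP vector and full-length PRR7 in the FUGW vector. The sequence of the control hairpin, the virus dose, the share of cells transduced and the days in culture were not given in the sources used here. The arrays were Agilent rat arrays read in Cy3 and Cy5, each carrying 2 samples of the same group, so each group lay on 2 arrays. NT and KD arrays shared a slide, and NO and OE arrays shared the other. Slide and group therefore cannot be told apart between NT and NO, and KD and OE values are given beside the results because KD shares the slide of NT, and OE shares the slide of NO.

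A nontargeting hairpin virus serves as the control for RNA interference. Neurons take up such lentiviral particles, copy the viral RNA into DNA and insert it into a chromosome, and the hairpin is then cut by the microRNA machinery of the cell. Double-stranded RNA, viral DNA and overloaded small RNA enzymes are known routes by which such vectors can trigger interferon genes or stress pathways. In neurons, calcium entry and neurotrophin signals switch on immediate early genes such as *Fos* and *Arc* within minutes to hours.

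The probes of the largest changes show what was read. They are 60-base oligonucleotides placed by the array annotation on the rat build rn4. The probe of *Fos*, which gave one of the largest rises, lies on the plus strand at chr6:109561099-109561158, and that of *Rab4b*, which gave one of the largest falls, lies on the minus strand within chr1:82247038-82248566. That span of 1529 bases is longer than the probe. *Nr4a1* is read on the plus strand at chr7:140020442-140020501, and *Ifi27l2b* on the minus strand at chr6:127733554-127733613 by one probe and, with no position given, by another. For these last 3 probes the first 30 bases are shown.
Fos probe: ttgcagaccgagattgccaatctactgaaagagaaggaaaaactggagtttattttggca
Rab4b probe: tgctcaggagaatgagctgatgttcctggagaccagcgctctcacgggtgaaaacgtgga
Nr4a1 probe: tccttccatgtgtacatagctgtcactcaa
Ifi27l2b tested probe: ccaccagtttaaccctcgatgaagtcagag
Ifi27l2b other probe: aatgaaatgtttaagtcatggtgcttgaaa
The *Ifi27l2b* probes differ in sequence and, as given further on, in result.

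In NT and NO the share of probes well above background ran from 49.2% to 69.4%, the Cy3 samples lying lower than the Cy5 samples in both groups. Over all genes the NT samples correlated with each other at 0.978 to 0.996, the NO samples at 0.984 to 0.995, and NT with NO at 0.962 to 0.977. In a principal component analysis of the 16 samples, the leading component (36.2% of the variance) placed the NT samples between 38.0 and 46.6, and the NO samples between -24.9 and -12.3. The KD samples, on the NT slide, lay between -3.04 and 0.161. The 10 spike-in control probes differed between NT and NO by a median of 0.16 log2 in Cy3 and -0.13 in Cy5. Single spike-in probes ranged from 0.06 to 0.50 in Cy3 and from -0.32 to 0.03 in Cy5. Their group means were dim, from 6.84 to 8.97 log2 intensity, so they do not cover brighter genes. Neuron markers were bright in every sample: *Snap25*, a presynaptic fusion protein, stood at 15.34 to 15.55 log2 intensity in NO and at 15.57 to 16.08 in NT. The number of arrays limits the precision of every value.

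Of 22922 genes tested, 5150 (22.5%) differed between NT and NO at a limma adjusted p below 0.05, 2640 higher in NT (11.5%) and 2510 lower (11%). In 977 of these (4.26%) the difference was at least 2-fold, 345 higher (1.51%) and 632 lower (2.76%). At least 4-fold changes numbered 15 upward and 32 downward. In 7459 genes (32.5%) all values of a group, 2 to 4 in number, lay on the same side of all values of the other. Of the called genes 4840 were of this kind. The median difference over all genes was 0.03 log2. The division into higher and lower depends on the scaling: higher genes made up 51.3% of calls here, and 4.74% of 2299 calls when arrays were not aligned to each other, a setting that moved the median of all genes to -0.21. With the scanner software's own processed signals the median moved to 0.14 and higher genes made up 58.4% of calls. No gene called in both fits changed direction under either setting. The differences below are NT minus NO, without subtraction of that median.

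**Figure D1:**
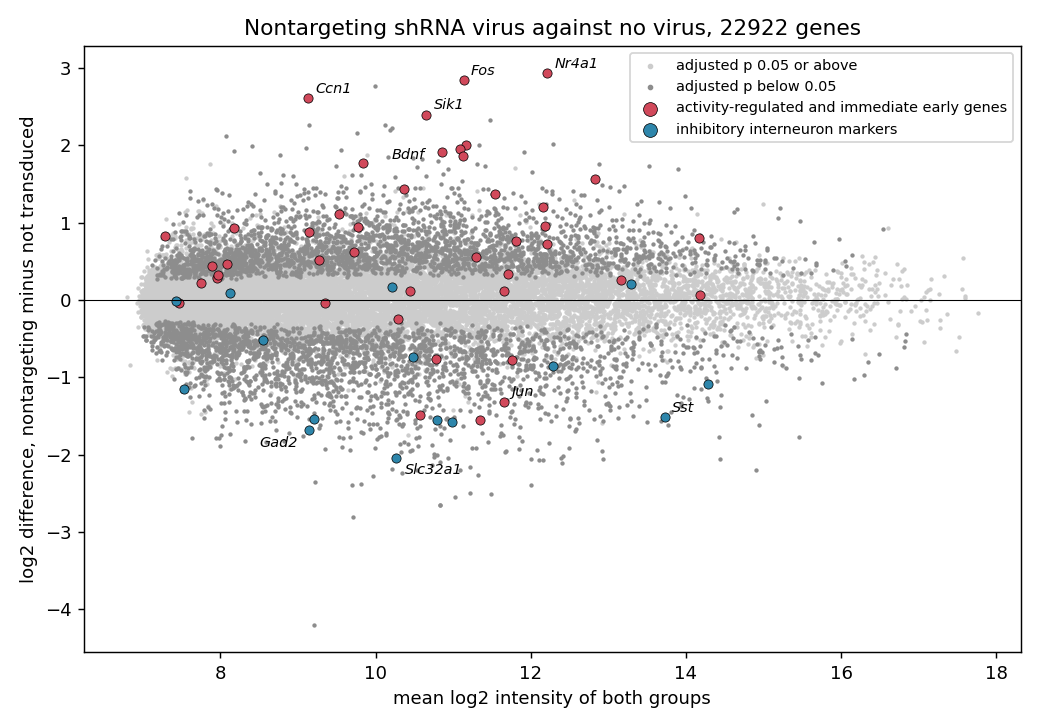
Each point is a gene, placed by its mean log2 intensity over NT and NO (x axis) and its log2 difference, NT minus NO (y axis); dark grey points had an adjusted p below 0.05. Activity-regulated genes (red) reach 2.93 at the top with *Nr4a1*, and interneuron markers (blue) reach -2.04 at the bottom with *Slc32a1*.

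The largest rises were led by immediate early genes. *Nr4a1*, an orphan nuclear receptor induced by calcium and cyclic AMP signals, stood at 11.01, 11.39, 10.23 and 10.36 log2 intensity in the NO samples and at 13.72, 13.91, 13.31 and 13.77 in the NT samples. Every NT sample lay above every NO sample, and the mean level was 7.62-fold higher (log2 difference 2.93, SE 0.23, limma adjusted p = 1.08e-06, n = 4 and 4). *Fos*, the AP-1 transcription factor subunit whose probe is printed above, stood at 10.12, 10.37, 9.42 and 8.95 in NO and at 12.74, 12.76, 12.28 and 12.45 in NT. It rose 7.18-fold (2.84, SE 0.30, adjusted p = 1.27e-05). *Sik1*, a kinase induced by cyclic AMP that restrains CREB coactivators, was 9.36, 9.41, 9.28 and 9.77 in NO and 12.06, 11.92, 11.54 and 11.89 in NT, a 5.27-fold rise. *Egr4*, a zinc finger factor, rose 4.01-fold over 3 NO and 4 NT values, since a flagged spot left NO replicate 4 without one. For *Nr4a1* and *Fos* the NO arrays differed: replicates 1 and 2, which share an array, were higher than replicates 3 and 4.

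The mean of *Fos* was 9.02 in KD and 9.64 in OE, that of *Sik1* was 9.49 and 9.46, and that of *Nr4a1* was 11.15 and 10.34. The KD arrays lay on the NT slide, and KD and OE cultures also received a lentivirus. For these genes both groups stood nearer NO than NT in level, and the cause was not tested. *Egr4* was intermediate in KD, at 11.14 against 9.92 in OE.

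Other members of the 15 largest rises lay outside the list of activity-regulated and immediate early genes, except *Ccn1*, which belongs to it. *Mesp1*, a mesodermal basic helix-loop-helix factor, went from 8.07 to 8.96 (lowest and highest NO sample) to 11.20 to 11.60 in NT, a 6.79-fold rise. *Ccn1*, a secreted matrix protein induced by serum response factor and YAP, rose 6.11-fold, from 7.57 to 8.10 in NO to 9.97 to 10.93 in NT. *Hspb1*, the small heat shock protein Hsp27, rose 5.02-fold. *Khdrbs2*, an RNA-binding splicing regulator, rose 4.81-fold, and *Car4*, a membrane-bound carbonic anhydrase, rose 4.79-fold. The KD and OE means of *Mesp1* were 8.50 and 8.48, those of *Ccn1* 7.72 and 7.66, and those of *Hspb1* 10.31 and 10.68, all near the NO means of 8.62, 7.83 and 10.31.

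The remaining rises had high levels in KD as well. *Zcwpw1*, a histone reader, averaged 8.59 in NO, 10.53 in NT, 11.96 in KD and 8.66 in OE. *Stk25*, a kinase of neuronal polarity and the Golgi, averaged 9.09 in NO, 11.32 in NT, 11.40 in KD and 8.97 in OE. *Golph3*, a Golgi membrane protein, and *Cdc42ep3*, a Cdc42 effector, had KD means of 11.43 and 10.56 beside NT means of 11.28 and 10.84. *Ddn* (dendrin, a postsynaptic protein) and *Cemip2*, a hyaluronidase, had KD means of 11.68 and 9.10 against OE means of 10.11 and 7.48. For these 6 genes both groups of the NT slide stood above both groups of the NO slide, and slide and virus cannot be told apart. *Stk25*, *Golph3* and *Cdc42ep3* also had SEs of 0.63 to 0.70, against 0.15 for the median gene. Leaving out NO replicate 1 or 3, or NT replicate 1, 2 or 4, removed the call of *Golph3* (adjusted p 0.0533 to 0.0811). Leaving out any of these samples, or NO replicate 2, removed that of *Cdc42ep3* (0.0558 to 0.0898). *Stk25* was not called without the array of NO replicates 1 and 2 (adjusted p = 0.137) or that of NT replicates 1 and 2 (0.0996), and *Ddn* not without that of NO replicates 1 and 2 (0.0923). A second *Cdc42ep3* probe differed by 0.57 without passing (adjusted p = 0.127 over all probes).

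**Figure D2:**
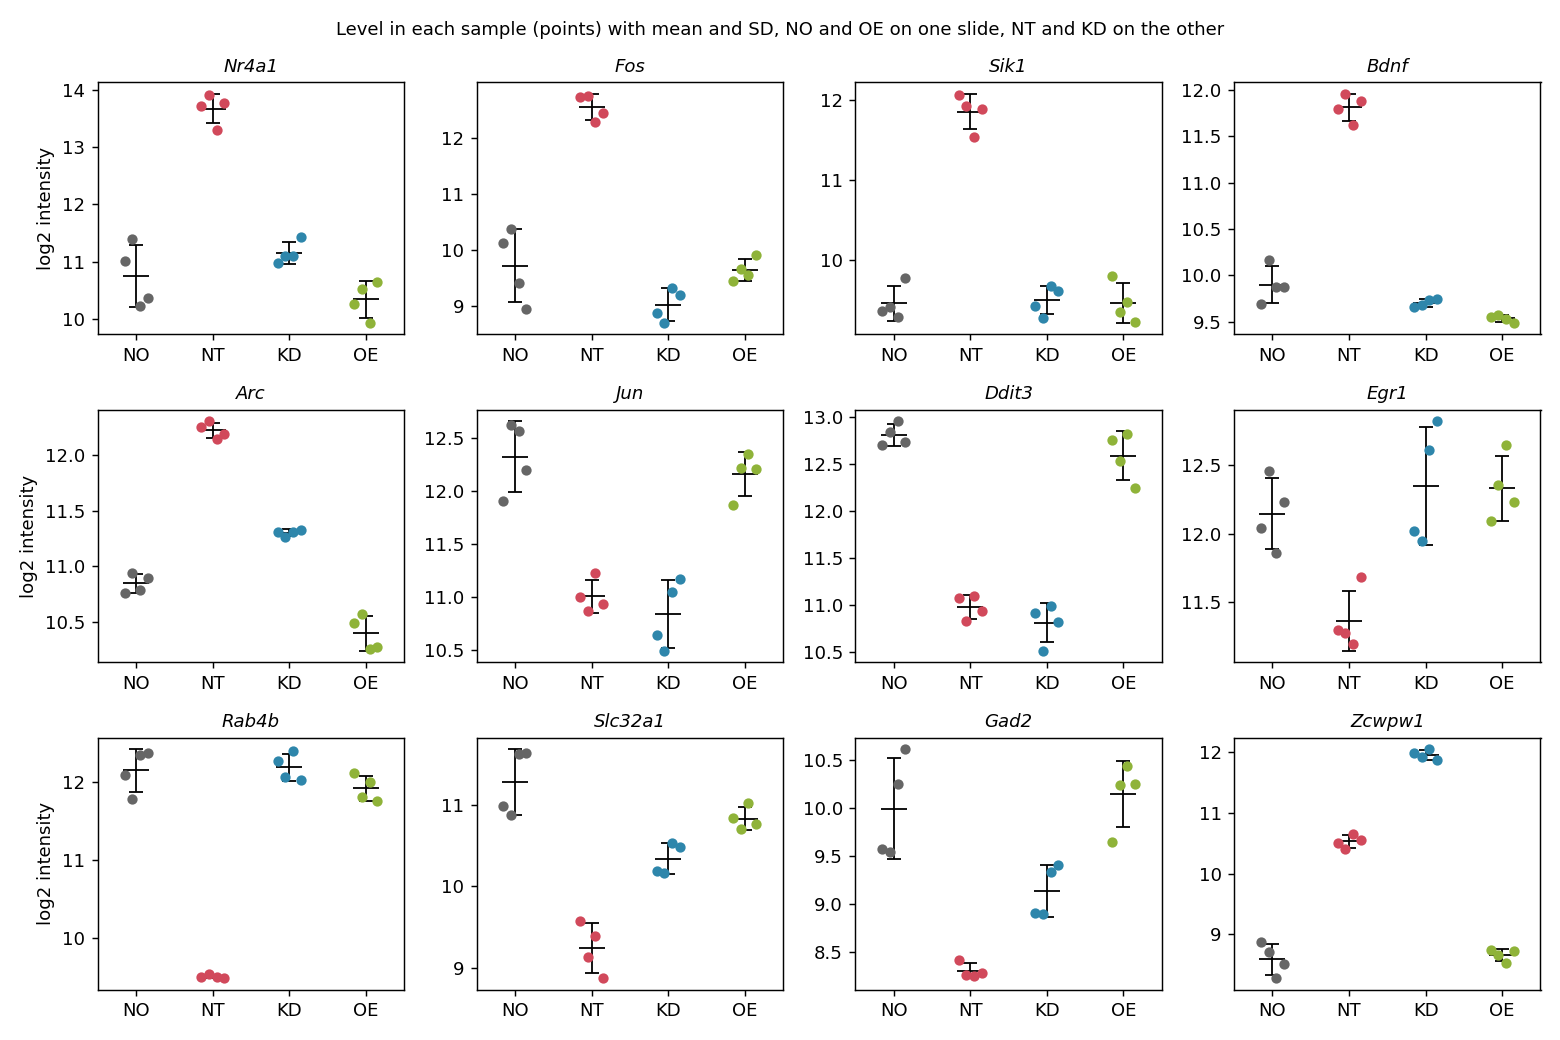
Points are the log2 intensity of single samples, with the group mean and SD, in not transduced (NO), nontargeting (NT), PRR7 knockdown (KD) and overexpression (OE) cultures. The NT samples of *Fos* and *Sik1* lie above all others plotted, *Jun* and *Ddit3* are low in both NT and KD, and *Rab4b* is low in NT at 9.49 to 9.53.

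The list of activity-regulated and immediate early genes held 43 measured members. Of these, 23 were higher (53.5%, against 11.5% of all genes) and 5 lower (11.6%, against 11%), and the median difference was 0.72, against 0.03 for all genes. Over the 38 members with a value in all samples, the median level relative to the 16-sample mean ran from 0.47 to 0.55 in the NT samples and from -0.19 to -0.01 in the NO samples. It ran from -0.23 to -0.20 in KD and from -0.28 to -0.17 in OE. Between KD and OE 8 of the 43 members were higher in KD (5.77% of all genes) and 4 lower (4.69% of all genes). With arrays not aligned to each other 12 members were called higher and 4 lower, beside 109 and 2190 of all 22922 genes.

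Among transcription factors of the list, *Nr4a2* rose 3.86-fold over 2 NT values (12.09 and 12.03) and 4 NO values (9.97 to 10.19). *Junb*, an AP-1 subunit, stood at 9.54 to 9.85 in NO and at 10.92 to 11.15 in NT (log2 difference 1.43, adjusted p = 7.26e-06). *Csrnp1* rose 3.43-fold by its tested probe, while its other probe differed by 0.22 without passing. *Klf4* rose 2.17-fold. *Npas4*, a neuron-specific factor driven by calcium, was not well above background in any NO sample (mean 6.87) and reached 7.70 in NT, so that its rise was at least 1.73-fold (adjusted p = 5.57e-05). *Egr2* stood at 8.82 to 9.16 in NO and at 9.42 to 9.64 in NT (adjusted p = 0.110) and *Egr3* at 7.48 and 7.45.

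Secreted and synaptic products of the same list also rose. *Bdnf*, brain-derived neurotrophic factor, stood at 9.70, 10.17, 9.87 and 9.87 in NO and at 11.80, 11.96, 11.62 and 11.88 in NT. No samples overlapped, and the rise was 3.76-fold (1.91, SE 0.14, adjusted p = 5.06e-07). *Inhba*, which encodes the activin subunit inhibin beta A, rose 3.65-fold, from 9.76 to 10.57 in NO to 11.41 to 12.43 in NT. *Arc*, a capsid-like protein that controls AMPA receptor removal, stood at 10.76 to 10.94 in NO and at 12.14 to 12.30 in NT (1.37, SE 0.10, adjusted p = 5.06e-07). *Nptx2*, a secreted pentraxin that gathers AMPA receptors, rose 1.69-fold by its tested probe, while its other probe did not pass (adjusted p = 0.0816 over all probes). *Ptgs2*, the inducible cyclooxygenase, rose 1.90-fold. *Vgf*, a granin-like peptide precursor, rose 1.74-fold over the NO samples of a single array. *Bdnf* averaged 9.71 in KD and 9.54 in OE, and *Arc* 11.30 and 10.40.

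**Figure D3:**
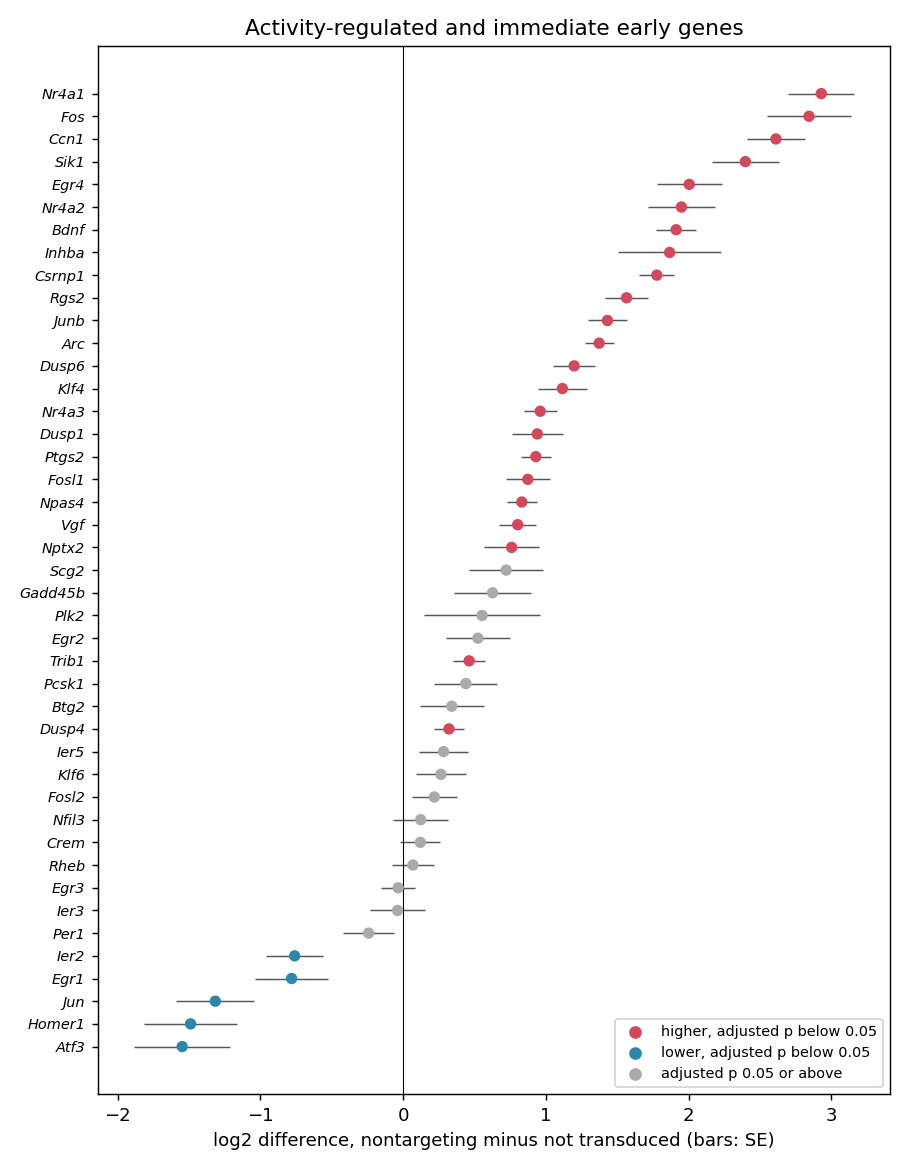
Log2 difference, NT minus NO, of the 43 genes of the activity list with its SE (bars). The values run from -1.55 for *Atf3* to 2.93 for *Nr4a1*, and 5 members, including *Jun* and *Egr1*, lie on the lower side with an adjusted p below 0.05.

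A subset of classic immediate early genes went the other way. *Jun*, which encodes the AP-1 subunit c-Jun, stood at 11.90, 12.62, 12.56 and 12.19 in NO and at 11.00, 10.86, 11.22 and 10.93 in NT. It fell 2.49-fold (log2 difference -1.32, SE 0.27, adjusted p = 0.00299), and the samples did not overlap. *Egr1* stood at 11.86 to 12.46 in NO and 11.20 to 11.68 in NT (-0.78, adjusted p = 0.0403), and did not pass without NO replicate 2 or 4 or NT replicate 2 or 3 (adjusted p 0.0577 to 0.0804). *Ier2* fell 1.69-fold. *Atf3*, a stress-induced partner of c-Jun, fell 2.93-fold over the 2 NO samples of a single array and 4 NT samples. *Homer1*, a postsynaptic scaffold gene with constitutive and activity-induced transcripts, fell by its tested probe (-1.49) and rose by its other probe (0.79, adjusted p = 0.0299 over all probes), so it has no single direction. The KD means of *Jun* and *Atf3* were 10.83 and 10.51, like NT, and their OE means were 12.16 and 12.15, like NO. *Egr1* averaged 12.35 in KD and 12.33 in OE.

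The list of MAP kinase feedback genes, not all of which dampen ERK activity, overlapped the same pattern in part. Of 23 measured members 10 were higher (43.5%, against 11.5% of all genes) and 3 lower (13%, against 11%), with a median of 0.32. Of the 23, 6 belong to the activity list as well. *Dusp5*, a nuclear ERK phosphatase, stood at 9.80 to 10.05 in NO and 11.57 to 11.83 in NT, a 3.49-fold rise, and *Dusp6*, its cytoplasmic relative, rose 2.29-fold. *Etv1*, an ETS factor, rose 2.01-fold by its tested probe, and not all of its other probes passed. *Dusp2* rose 3.06-fold with NT values of 10.93 and 9.97 on one array and 8.91 and 8.66 on the other. *Dusp16*, a phosphatase of JNK and p38, fell 2.59-fold. With arrays not aligned to each other 2 members were higher and 2 lower, beside 109 and 2190 of all 22922 genes. The KD means of *Dusp5* and *Dusp6* were 11.02 and 12.57, and the OE means 9.97 and 11.58.

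The largest falls included a small GTPase, an adhesion ligand, metabolic carriers and transporters. *Rab4b*, a GTPase of recycling endosomes, stood at 12.10, 11.79, 12.36 and 12.38 in NO and at 9.49, 9.53, 9.49 and 9.49 in NT. The NT samples were nearly identical, and the fall was 6.30-fold (-2.65, SE 0.15, adjusted p = 9.82e-08). *Nxph1*, neurexophilin 1, a neurexin ligand secreted by interneurons, stood at 12.05 to 12.25 in NO and at 9.03 to 9.81 in NT and fell 6.29-fold. *Fabp3*, a fatty acid carrier, fell 5.63-fold, from 12.22 to 12.79 in NO to 9.88 to 10.09 in NT. *Slc1a1*, the neuronal glutamate transporter EAAC1, fell 4.38-fold, from 11.59 to 11.99 to 9.57 to 9.75. *Frrs1l*, an assembly factor of AMPA receptors, fell 4.14-fold, from 12.96 to 13.10 to 10.91 to 11.14.

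The KD and OE means of *Rab4b* were 12.19 and 11.93, those of *Fabp3* 12.71 and 12.13, those of *Slc1a1* 12.14 and 11.69, and those of *Frrs1l* 12.86 and 12.83. In these genes the KD group, on the NT slide and also with a hairpin virus, stood near the NO level. *Nxph1* averaged 11.15 in KD and 12.33 in OE.

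Further genes belonged to the 15 largest falls. *Ywhab*, a 14-3-3 adaptor protein, fell 4.59-fold over 3 NT values, and *Arhgdia*, an inhibitor of small GTPases, fell 4.14-fold with NT samples between 13.39 and 13.42. *Btbd1* fell 4.13-fold, *Pea15*, a brake on ERK entry into the nucleus, 4.46-fold, *Jam2*, a junctional adhesion molecule, 4.70-fold, and *Igfbp5*, an insulin-like growth factor binding protein, 4.57-fold. *Ifi27l2b*, an interferon-inducible gene of the *Ifi27* family, had a log2 difference of -2.81 by the tested probe, from 10.67 to 11.58 in NO to 8.17 to 8.41 in NT (SE 0.25), while the other probe printed above differed by 0.08 (adjusted p = 0.706 over all probes). Of the 15 largest falls 8 had more than 1 probe, and in 7 of these all probes were called lower. Of the 15 largest rises 4 had more than 1 probe, and in 3 all were called higher.

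**Figure D4:**
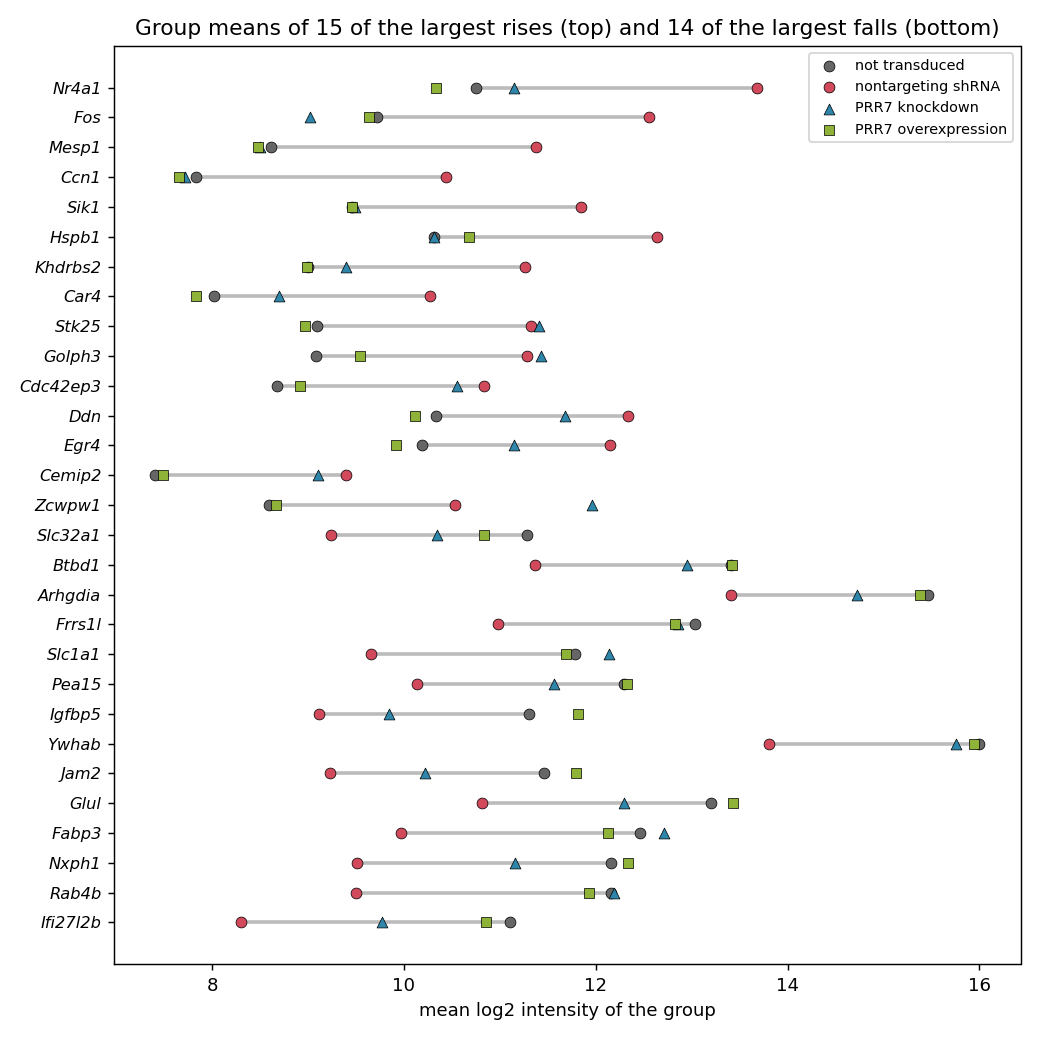
Mean log2 intensity in the 4 groups for the 15 largest rises and 14 of the 15 largest falls; a grey line joins NO and NT. KD means (triangles) lie near NO for *Sik1*, *Rab4b* and *Frrs1l* and near NT for *Stk25* and *Golph3*.

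Markers of inhibitory interneurons, the neurons that release GABA, were lower in NT. Of 15 measured markers 10 were lower (66.7%, against 11% of all genes) and none was higher, with a median of -1.08. Under either other scaling 10 markers were lower as well, beside 2190 of all 22922 genes with arrays not aligned and 2294 with the processed signals. *Slc32a1*, the vesicular GABA transporter, stood at 10.99, 10.87, 11.63 and 11.63 in NO and at 9.58, 9.13, 9.38 and 8.87 in NT, a 4.12-fold fall (-2.04, SE 0.21, adjusted p = 1.14e-05). *Gad2*, which makes GABA, stood at 9.57, 9.54, 10.25 and 10.61 in NO and at 8.42, 8.27, 8.25 and 8.28 in NT, a 3.22-fold fall. *Gad1*, its partner enzyme, fell 3.00-fold, with NO replicate 1 (10.54) inside the NT range of 9.86 to 10.61; without the array of NO replicates 3 and 4 its difference was -1.02 (adjusted p = 0.153).

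The fall extended to transcription factors and to subtype peptides. *Dlx5*, a homeodomain factor of interneurons, fell 2.91-fold, whereas *Dlx1* and *Dlx2* differed by 0.09 and -0.01. *Sst*, somatostatin, stood at 14.28 to 14.60 in NO and at 12.28 to 13.45 in NT (-1.52, adjusted p = 0.0011). *Npy* fell 1.81-fold and *Reln*, reelin, 1.66-fold. *Pvalb*, parvalbumin, was not well above background in any NT sample (mean 6.96, against 8.11 in NO), so its fall was at least 2.03-fold. *Vip*, *Calb1* and *Calb2* differed by -0.52, 0.17 and 0.20 and did not pass.

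Over the 14 interneuron markers with a value in all samples, the median level relative to the 16-sample mean ran from 0.20 to 0.69 in NO and from -0.68 to -0.38 in NT. It ran from -0.08 to -0.01 in KD and from 0.15 to 0.37 in OE. Between KD and OE, on the same pair of slides, 5 of the 15 markers were lower in KD (4.69% of all genes) and 1 was higher. In whole cultures fewer cells of a type and less RNA per cell cannot be told apart.

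Markers of excitatory neurons did not share that fall. Of 15 measured, 6 were higher (40%, against 11.5% of all genes) and 1 lower (6.67%, against 11%), with a median of 0.29. With arrays not aligned to each other none was called in either direction. In that setting only 109 of all 22922 genes were called higher. *Neurod1* rose 1.88-fold, with 12.03 and 11.93 on one NT array and 11.06 and 10.86 on the other, and without the first of these arrays its difference was 0.40 (adjusted p = 0.0548). *Slc17a7*, the vesicular glutamate transporter VGLUT1, stood at 13.26 to 13.88 in NO and 13.13 to 13.50 in NT (adjusted p = 0.465), and *Nrgn*, neurogranin, fell 1.49-fold, a call lost without NO replicate 1 or 3 or NT replicate 4 (adjusted p 0.0561 to 0.0678). General neuron markers gave 3 lower and none higher of 15 (*Thy1*, *Eno2* and *Syn1*), with a median of -0.05.

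Neurotrophins and neuropeptides divided. Of 24 measured, 6 were higher (25%, against 11.5% of all genes) and 7 lower (29.2%, against 11%). Beside *Bdnf*, *Penk*, the enkephalin precursor, rose 1.89-fold, with 11.21 and 11.23 on one NT array and 10.14 and 10.19 on the other. Without the first of these arrays its difference was 0.39 (adjusted p = 0.227), and its other probe differed by 0.21 without passing. *Pnoc*, the nociceptin precursor, fell 2.08-fold, and *Gal*, galanin, had a log2 difference of -0.92. *Ntrk2*, the receptor for BDNF, was lower by its tested probe (-0.67), and 1 of its other probes did not pass.

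Among glutamate receptor genes all 4 AMPA subunits and 2 of 5 kainate subunits were lower by the tested probe. Of 26 ionotropic subunits and auxiliary proteins 11 were lower (42.3%, against 11% of all genes) and 2 higher (7.69%, against 11.5%). The median was -0.27, and 10 were lower with arrays not aligned, beside 2190 of all 22922 genes. *Gria2*, the AMPA receptor subunit that blocks calcium entry, stood at 12.48 to 12.82 in NO and at 11.41 to 11.71 in NT, a 2.19-fold fall. *Gria1*, *Gria3* and *Gria4* differed by -0.88, -0.67 and -0.52, all past the test. The other probe of *Gria4* differed by -0.18 without passing (adjusted p = 0.572 over all probes). The kainate receptor partner *Neto1* fell 2.23-fold and *Cacng3* 2.17-fold, the 1 called gene of 6 AMPA receptor auxiliary proteins. The NMDA receptor subunits *Grin1* and *Grin2b* differed by 0.02 and -0.22 and did not pass, and *Grin2c* and *Grin2d* were higher (1.25 and 0.81). *Grin2a* was lower by its tested probe (-0.53), while its other probe did not pass (adjusted p = 0.0746 over all probes). *Grm5*, a metabotropic receptor, fell 2.31-fold, the 1 lower member of 8, with *Grm8* the 1 higher.

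The KD means of *Gria2* and *Grm5* were 12.80 and 9.14, and their OE means 12.92 and 9.11, beside NO means of 12.68 and 9.03. Over the 23 ionotropic members with all values, the median level relative to the 16-sample mean ran from -0.33 to -0.18 in NT, from -0.03 to 0.10 in NO and from 0.11 to 0.22 in KD.

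Other synaptic lists are given beside 11.5% of all genes higher and 11% lower. GABA receptors had 3 lower (20%) and 1 higher of 15, *Gabra4* rising 1.93-fold. The postsynaptic density had 4 lower (13.8%) and 3 higher (10.3%) of 29, *Shank3*, a scaffold protein, falling 2.40-fold and *Shank1* differing by 0.75. Synaptic vesicle and active zone genes had 8 lower (22.2%) and 2 higher of 36, *Syt12*, a synaptotagmin, falling 3.20-fold. Voltage-gated channels had 4 lower and 4 higher of 35 (11.4% each): *Scn3b*, a sodium channel subunit, fell 2.48-fold with NT samples at 13.59 to 13.68, and *Kcna4*, an A-type potassium channel, rose 2.31-fold. Axon growth and cytoskeleton genes had 3 lower (11.1%) and 2 higher of 27, with *Dcx*, a microtubule protein of young neurons, falling 2.51-fold.

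The integrated stress and unfolded protein responses, which raise chaperones and amino acid supply under protein stress, had lower members. Of 28 measured, 12 were lower (42.9%, against 11% of all genes) and 2 higher (7.14%, against 11.5%), with a median of -0.43. Under either other scaling 9 were lower. Over all 22922 genes 2190 were lower with arrays not aligned and 2294 with the processed signals. *Ddit3*, the stress factor CHOP, stood at 12.69, 12.83, 12.95 and 12.73 in NO and at 11.06, 10.82, 11.09 and 10.93 in NT, a 3.54-fold fall (-1.83, SE 0.16, adjusted p = 2.65e-06). *Atf5* fell 3.06-fold, *Eif2ak3*, the kinase PERK, 2.75-fold, and *Trib3*, a target of CHOP, 2.33-fold. *Atf4* itself differed by -0.42 over 2 NT values (adjusted p = 0.0682). *Pdia4*, a disulfide isomerase, was higher (1.39, adjusted p = 0.0422), a call lost without any of NO replicates 1 to 3 or NT replicates 1, 2 and 4 (adjusted p 0.0536 to 0.0948).

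The same genes were low in KD. Means in KD and OE were 10.80 and 12.58 for *Ddit3*, 14.07 and 15.47 for *Atf5*, 9.06 and 10.25 for *Eif2ak3* and 9.09 and 10.82 for *Trib3*. Between KD and OE, which share no sample with NT and NO, 16 of the 28 members were lower in KD and none was higher, against 4.69% and 5.77% of all genes. Both comparisons set the same pair of slides against each other.

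Lists of damage, death and degradation are read against 11.5% of all genes higher and 11% lower. Of 20 p53 targets 5 were lower (25%) and 1 higher (5%), with a median of -0.02. *Zmat3* fell 4.21-fold over 2 NT values, while *Cdkn1a* and *Mdm2*, the classic targets, differed by 0.05 and 0.17 and did not pass. Of 18 DNA repair genes 2 were higher and 2 lower (11.1% each), *Lig4*, the ligase of end joining, rising 2.45-fold, which did not pass without NO replicate 1 or 3 or NT replicate 4 (adjusted p 0.0503 to 0.0615). Cell death regulators had 6 lower (27.3%) and 1 higher of 22, with *Bcl2l1*, the survival factor Bcl-xL, at -1.21 by its tested probe. Lysosome and autophagy genes had 10 lower (35.7%) and 1 higher of 28: *Lamp1*, a lysosomal membrane protein, fell 3.06-fold, *Becn1* 3.02-fold, and *Map1lc3b*, an autophagosome protein, 3.88-fold over 2 NT values. Proteasome subunits had 4 higher and none lower of 25. Heat shock proteins had 4 higher and 2 lower of 20, and NRF2 targets, which answer oxidative stress, 1 higher and 2 lower of 18. Targets of SRF and YAP had 6 lower (35.3%) and 2 higher (11.8%) of 17, so the rise of *Ccn1* was not shared by most of its list; *Tagln* and *Tpm1* differed by -1.03 and -0.75.

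Interferon-stimulated genes gave few calls. Of 32 measured, 1 was higher (3.12%, against 11.5% of all genes) and 2 were lower (6.25%), with a median of 0.00. The higher gene was *Lgals3bp* (0.75), and the lower genes were *Rsad2* (-0.62) and *Stat2* (-0.37). *Rsad2* was not called without NO replicate 3 or NT replicate 4, and *Stat2* without replicate 4 of either group (adjusted p 0.0525 to 0.0587). *Isg15*, a ubiquitin-like protein that interferon induces strongly, stood at 7.99 to 8.31 in NO and at 7.82 to 8.25 in NT (adjusted p = 0.580). *Irf7*, the interferon master regulator, stood at 7.37 to 7.77 in NO, at 7.47 and 7.47 in NT replicates 1 and 2, and at 10.18 and 9.44 in NT replicates 3 and 4, which share an array. The first NT array minus the other thus gave -2.34 log2 for *Irf7*, and its difference from NO did not pass (0.99, adjusted p = 0.160). Without the array of NT replicates 1 and 2 it was 2.16 (adjusted p = 0.000181). *Ifi47*, an interferon-induced GTPase, gave -1.62 in the same subtraction, and *Gbp2*, *Ifi44* and *Eif2ak2* gave -0.77, -0.72 and -0.43, while *Isg15*, *Oas1a* and *Cxcl10* gave 0.24, -0.02 and -0.01.

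Related lists are read against 11.5% of all genes higher and 11% lower. Nucleic acid sensors and interferon signalling had 2 lower (11.8%) and none higher of 17, *Ifih1* (the sensor MDA5) differing by -0.38 without passing. Antigen presentation genes had 4 lower and none higher of 16: *B2m*, the light chain of class I molecules, fell 2.80-fold by its tested probe, and *Pdia3*, a chaperone of class I loading, 3.11-fold. NF-kB and inflammation genes had 3 higher and 4 lower of 17, *Lcn2*, a siderophore-binding protein of reactive glia, falling 2.29-fold. The small RNA pathway had 4 higher and 2 lower of 15, with *Tarbp2*, a double-stranded RNA partner of Dicer, at -0.73. *Dicer1* differed by -0.36, a call lost without any single NO sample or without NT replicate 1 or 2 (adjusted p 0.0519 to 0.0804). *Ago2* differed by -0.40 and did not pass. The list of lentiviral host factors, which was not limited to entry and integration, had 5 higher and 3 lower of 21. *Chmp4b*, a membrane scission protein, fell 2.90-fold, and *Cpsf6*, a capsid-binding protein, differed by 0.80.

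Markers of glia and other cells were called lower more often than higher. The counts are small, and 11% of all genes were lower. Astrocyte markers had 3 lower (15%) and none higher of 20. *Glul*, glutamine synthetase, stood at 13.14, 13.41, 13.61 and 12.66 in NO and 11.17, 11.08, 11.04 and 9.95 in NT, a 5.27-fold fall. *Slc1a3* fell 2.47-fold and *S100b* 2.66-fold, while *Gfap* stood at 10.96 to 12.75 in NO and 12.20 to 13.16 in NT (adjusted p = 0.418 by this probe), its other probe was higher (1.18, adjusted p = 0.0354 over all probes), and *Aldh1l1* differed by 0.37 (adjusted p = 0.104). Oligodendrocyte markers had 3 lower (23.1%) and none higher of 13, and *Mbp*, myelin basic protein, differed by -0.19. Microglia markers had 2 lower (16.7%) and 1 higher of 12, vascular markers none called of 5, and fibroblast markers 3 lower (27.3%) and 1 higher of 11. Markers of dividing progenitors had 3 lower (30%) and none higher of 10.

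Cell cycle genes were listed by phase, and the lists were not tested against each other. Of 20 mitosis genes 8 were lower (40%, against 11% of all genes) and none higher, *Cdk1* falling 2.51-fold and *Top2a* 2.16-fold by its tested probe. Of 30 S phase genes 7 were higher (23.3%, against 11.5%) and 4 lower (13.3%), with a median of 0.07, and the median level of the list in single samples ran from -0.33 to -0.17 in NT and from -0.34 to -0.16 in NO: *Prim1*, a primase subunit, rose 2.55-fold, from 11.07 to 11.37 in NO to 12.35 to 12.69 in NT, and *Mcm3*, a subunit of the replicative helicase, fell 2.08-fold by its tested probe. In the comparison of KD and OE 22 of these 30 were higher in KD, against 5.77% of all genes, and none lower.

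Housekeeping lists are given beside a median of 0.03 for all genes, of which 11.5% were higher and 11% lower. The medians were 0.04 for 27 respiratory chain genes (3 higher, 1 lower), 0.18 for 30 ribosomal proteins (3 higher, none lower), -0.03 for 27 genes of glycolysis and hypoxia (1 higher, 3 lower) and 0.03 for 24 genes of cholesterol synthesis (none higher, 1 lower). *Gapdh* stood at 16.88 to 17.17 in NO and at 16.72 to 17.38 in NT. Ribosomal proteins had 10 members called higher with the processed signals, beside 3220 of all 22922 genes in that setting. Extracellular matrix genes had 6 lower (23.1%, against 11% of all genes) and 2 higher of 26, with a median of -0.12, and *Spp1*, osteopontin, rose 3.13-fold with NT values of 10.27 and 9.92 on one array and 8.83 and 8.31 on the other; without the first of these arrays its difference was 0.88 (adjusted p = 0.0684).

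Several of these lists had no member called in a direction. At an unadjusted limma p below 0.05, 0 interneuron markers, 0 mitosis genes, 0 progenitor markers, 0 nucleic acid sensors, 1 antigen presentation gene, 1 cholesterol gene, 1 astrocyte, 2 neuron and 3 oligodendrocyte markers were higher. On the lower side 2 ribosomal proteins, 1 proteasome subunit and 1 vascular marker had such a p.

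**Figure D5:**
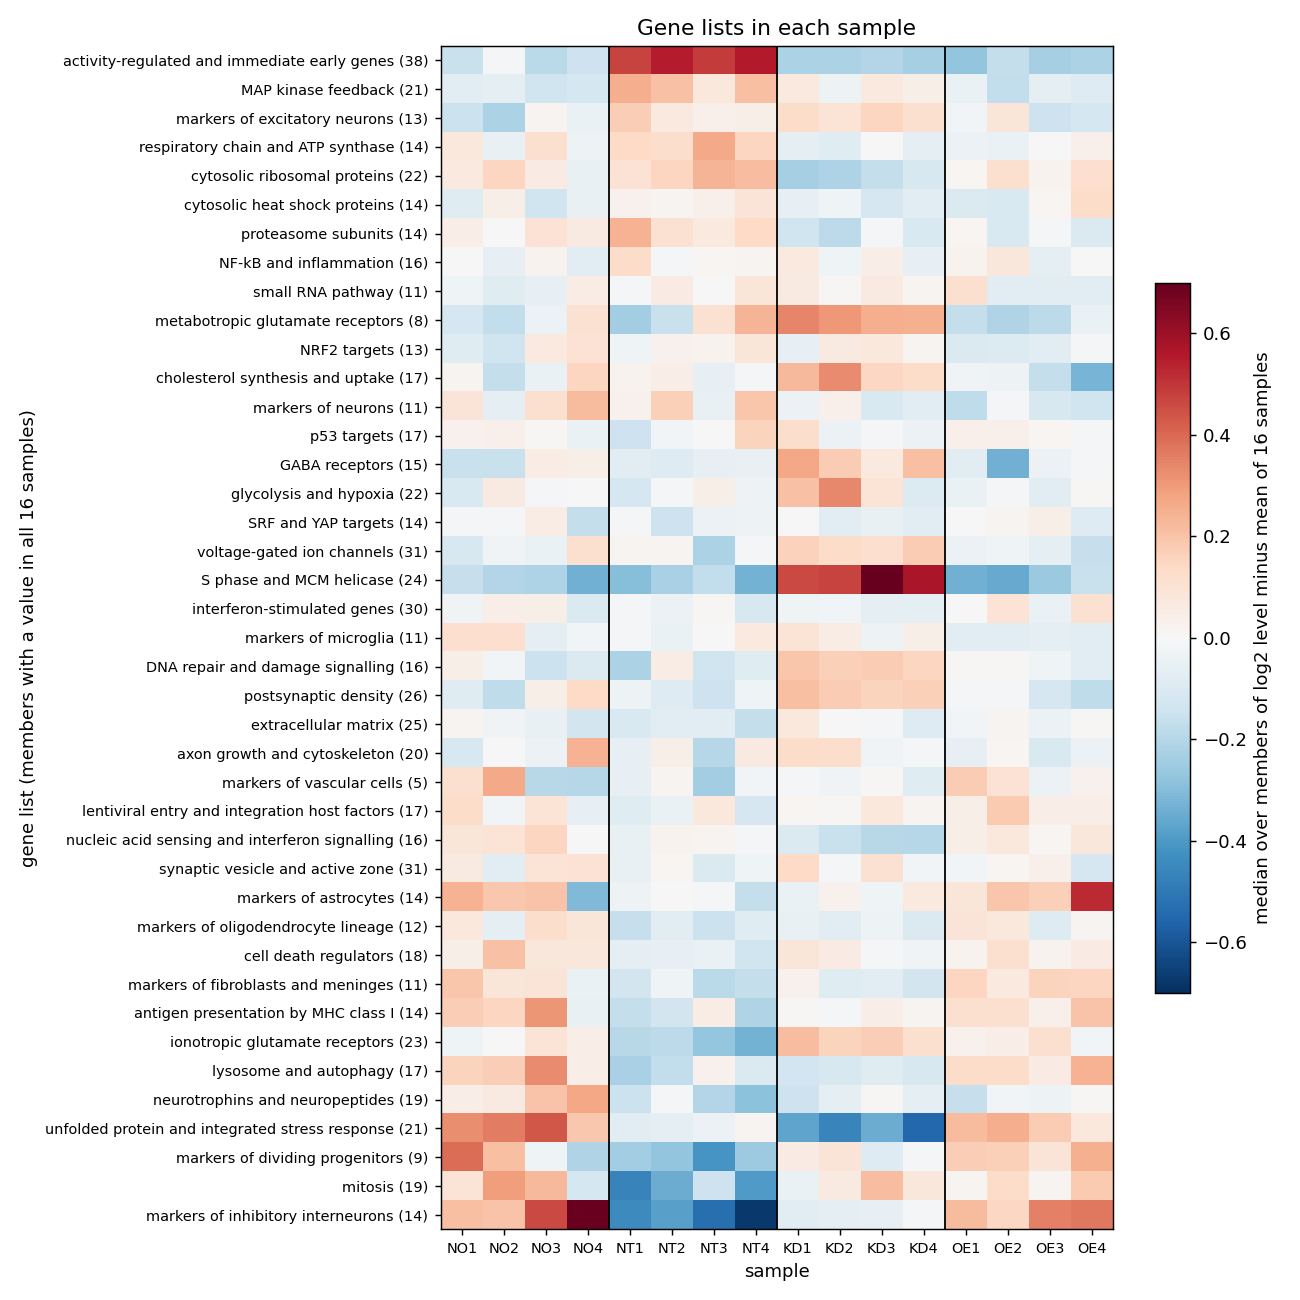
Rows are the gene lists, ordered by NT minus NO, columns are the 16 samples, and colour gives the median over members of the log2 level minus its mean over the 16 samples (scale from -0.7 to 0.7). The activity list is highest in the 4 NT samples (0.47 to 0.55), the interneuron markers are lowest there (-0.68 to -0.38), and the stress response list is lowest in KD (-0.55 to -0.35).

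KD and OE cultures lay on the same slides as NT and NO and share no sample with them. Between KD and OE 2397 genes (10.5%) differed, 1322 higher (5.77%) and 1075 lower (4.69%). Of the genes called in both comparisons 808 had the same direction, which is 15.7% of the NT and NO calls and 33.7% of the KD and OE calls, and 236 had opposite directions (4.58% and 9.85%). Of the 15 largest rises 6 were also higher in KD than in OE at an adjusted p below 0.05 and none lower, and of the 15 largest falls 6 were also lower and 2 higher (*Fabp3* and *Slc1a1*). The contrast of KD and OE differs in hairpin, vector and PRR7 as well as in slide.

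Promoters were searched for motifs of the factors that drive activity genes. RefSeq promoter windows of the build GRCr8 (250 bases before to 50 after the gene start) were at hand for 10111 of the tested genes. The CRE core TGACGTC, bound by CREB, was present on either strand in 5.26% of these, in 5.56% of genes higher in NT and in 4.90% of genes lower. The AP-1 site TGACTCA, bound by Fos and Jun dimers, was present in 3.42%, 2.41% and 4.41%. Neither motif contains the other. Within the activity list 4 of 17 higher members with a window held the CRE core, and 5 of 15 members that were not higher held it. None of either set held the AP-1 site. The 250 bases before the start of 2 members that rose are shown, with the match in capitals.
Egr4 promoter: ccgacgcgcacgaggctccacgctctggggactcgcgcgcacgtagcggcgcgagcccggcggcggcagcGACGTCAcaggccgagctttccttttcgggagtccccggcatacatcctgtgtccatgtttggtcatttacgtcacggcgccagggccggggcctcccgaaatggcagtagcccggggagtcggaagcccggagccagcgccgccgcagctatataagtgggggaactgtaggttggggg
Vgf promoter: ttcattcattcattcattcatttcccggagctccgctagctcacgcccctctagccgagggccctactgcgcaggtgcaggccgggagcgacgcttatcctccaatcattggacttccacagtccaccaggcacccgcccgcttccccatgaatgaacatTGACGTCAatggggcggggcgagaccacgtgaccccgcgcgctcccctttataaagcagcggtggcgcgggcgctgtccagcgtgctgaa
The *Egr4* window lies on the minus strand at chr4:119607818-119608067 (GRCr8), with its match starting at position -180 from the gene start, in reverse complement. The *Vgf* window lies on the minus strand at chr12:25277021-25277270, and its match starts at -90 and reads TGACGTC on both strands through the palindrome. A match describes these letters in this window and is not a measured binding site.

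Genes with more than 1 probe gave a check that did not use the tested probe alone. Of 3545 such genes, 1034 had a called tested probe, and in 840 of these (81.2%) all probes went the same way, while in 351 (33.9%) all probes were called in that direction. In 19 genes probes were called in opposite directions. Called genes lay in all ranges of intensity but were fewer among dim ones: among the 25% of genes with the lowest mean level 2.70% were higher and 4.54% lower, and among the 25% with the highest 15.8% and 12.6%. The median GC content of the tested probes was 45% over all genes and 43.3% for both the higher and the lower genes. The 2 arrays of a group differed by at least 1 log2 in 387 of 22106 genes in NT (1.75%) and in 230 of 22029 genes in NO (1.04%).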

How the data were processed

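RNA of 16 cultures was read on 8 Agilent rat arrays, and the 4 NT and 4 NO samples were compared. The group was taken from the source label. Another label, which describes brain tissue of hormone-treated adult rats, contradicts the culture protocol and was not used. The deposited scanner files hold spot intensity and local background from Agilent Feature Extraction 10.7.3.1, per the file headers, with no normalization in the columns used. The deposited series matrix holds log2 values, which equal the log2 median signal minus background less the column median (slope and r of 1 against the scanner files).

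Background was corrected by normexp (offset 50), dye bias by loess (control spots weighted 0) and array differences by the Aquantile method, all in limma 3.58.1 (with statmod 1.5.0 and R 4.3.3). Flagged outlier spots were set to missing, which left some groups with 2 or 3 values. Of 41012 probes 27294 were well above background in at least 4 samples and had at least 12 values in all and 2 in each group. The brightest probe of each gene was tested. Names came from the array and from RefSeq genes (GRCr8). RefSeq named 21281 probes.

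The limma fit held all 16 samples, with terms for group and dye and a random block for the array (correlation 0.569). P-values are two-sided, with Benjamini-Hochberg adjustment over 22922 genes and a threshold of 0.05. The design text calls the samples biological replicas without naming separate cultures or animals, so p-values measure the spread between these samples, which may be technical in part. A probe not well above background in any sample of a group has a bound: its fold is at least the bright mean over the higher, in each sample, of the lowest signal well above background and its own signal (means of normalized log2 values). On data simulated for the comparison of NT and NO (22922 genes, 200 of them changed), 79% of 2-fold and 99% of 4-fold changes were called. Of the unchanged genes 12 were called. The simulation held no difference between slides and far fewer changed genes than the 5150 called here, so these shares need not hold for the data.

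The comparison, the 9 marker sets and the 32 gene lists were chosen with earlier results of these data known. Genes are named as the 15 largest rises and 15 largest falls among called genes with a symbol, at least 3 values a group and no overlap of samples, then up to 4 members of each list with the smallest p, with *Jun* and *Fos*. Some genes that this rule names are not reported here. Other members named as examples were chosen after their values were seen. A gene in several lists counts in each. The effect of other settings is given at the end. Figures were drawn with matplotlib 3.10.9 (Python 3.11.15, pandas 2.3.3, NumPy 2.4.6). No tested probe carried the name *Prr7*, so the labels were not checked on that gene here.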

Additional observations from a re-analysis of the deposited data

Results flagged for a closer look

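Among the 143 genes named, 275 groups of 4 samples were checked for a sample that stood apart, by its gap to the nearest other sample as a share of the range. In 14 groups (5.09%) the share was above the critical value of Dixon's test, and chance gives about 1 in 20 such groups, so the number is near that background. In NT the lowest sample stood apart for *Golph3* (10.19, next 11.51), *Glul* (9.95, next 11.04), *Junb* (10.92, next 11.13), *Vip* (7.98, next 8.36), *Thy1* (8.71, next 8.93) and *Pnoc* (8.83, next 9.33). The highest NT sample stood apart for *Rab4b* (9.53, next 9.49), *Frrs1l* (11.14, next 10.95), *Isg15* (8.25, next 7.89) and *Pdia3* (11.73, next 10.86). In NO the lowest sample stood apart for *Igfbp5* (10.93, next 11.41), *Dusp6* (11.39, next 11.61), *Penk* (9.49, next 9.85) and *Gfap* (10.96, next 12.59). All values are log2 intensities.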

How the results depend on the processing

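The comparison gave 5150 calls (2640 higher, 2510 lower), and the other settings moved the counts as follows. Without alignment between arrays there were 2299 calls, 109 of them higher. A fit of the 8 samples alone gave 3248 (1593 and 1655), Cy3 samples alone 2457 (1142 and 1315), and Cy5 samples alone 2892 (1412 and 1480). With each array as 1 value 1730 genes were higher. A fit without the array block gave 9121 (4968 and 4153), and a demand for a 1.5-fold change 3097 (1422 higher). Leaving out 1 sample gave 4246 to 5411 calls. Without the array of replicates 1 and 2 there were 3723 calls for NO and 5739 for NT. Without that of replicates 3 and 4 there were 4021 for NO and 4761 for NT. Between KD and OE the count of 2397 became 4125 in a fit of those 8 samples, 1054 with each array as 1 value and 6172 without the array block. The cause of these shifts was not tested.

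Same-numbered NT and NO samples correlated at 0.0473, 0.206, 0.272 and 0.330 after group means were removed, and they also share a dye. With the dye removed as well the values were 0.101, 0.200, 0.102 and 0.201, where the 2 samples of a dye mirror each other. The first set has a value below 0.1 and the other has none, so whether the numbers pair the samples is not settled. A replicate block gave 6079 calls, 5120 of them among the 5150 with the same direction, and it removed no call of a gene named in the text. Before removal of the dye, NO replicate 1 correlated better with an NT sample of another number (0.0776) than with its own (0.0473). NT replicate 1 correlated best with its own number (0.0473, against 0.0387 for the best other).

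Of the 114 called genes named in the text, 83 kept the call without alignment between arrays. The counts that kept it were 106 with the processed signals, 112 with plain background subtraction, 114 with quantile normalization, 103 with each array as 1 value, 94 with Cy3 and 97 with Cy5 samples. Leaving out 1 sample removed 1 to 7 of these calls. Without 1 of the NO arrays 95 or 101 of the 114 kept the call, and without 1 of the NT arrays 97 or 103. No named gene was called in opposite directions by any setting run. Signal over background limits the dim genes: among the 25% with the lowest mean level 2.70% were higher and 4.54% lower, and 14 tested genes were well above background in none of the 8 samples.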
